A study of Mus musculus with 14 samples.

Results

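The 10 genes described here were chosen by name, with no threshold on their values: *Gata4*, *Gata6*, *Sox17*, *Sox7*, *Dab2*, *Amn*, *Lama1*, *Lamb1*, *Col4a1* and *Col4a2*. They are genes of the primitive endoderm and of the basement membrane that this tissue lays down. All 10 were found, each at a single locus, among the 24345 genes of the RNA-seq tables and the 24394 genes of the immunoprecipitation tables. The 14 libraries form 7 groups of 2. Wild-type mouse embryonic stem cells of a home-made line (mESC), wild-type primary mouse embryonic fibroblasts (MEF), wild-type stem cells that served as control of the knockdown (KD_control) and stem cells with a Dppa5a knockdown (Dppa5a_KD) gave 8 RNA-seq libraries, of total RNA in mESC and MEF and of an RNA fraction not named in the others. The other 6 libraries hold RNA immunoprecipitated (RIP) from stem cells of the home-made line that overexpress 3Flag-Dppa5a, an RNA-binding protein of pluripotent cells carrying a Flag tag. They used control IgG in untreated cells (IgG_RIP), Flag antibody in untreated cells (Flag_RIP) and Flag antibody in cells given the treatment labelled HU (HU_Flag_RIP). Stem cells were kept on inactivated fibroblasts with LIF and knockout serum replacement and were moved through gelatin-coated dishes before harvest. The sources used here do not give how Dppa5a was knocked down, what the control of the knockdown received, or whether the lines are clones.

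Cells of the early mouse embryo's inner cell mass become either epiblast, from which embryonic stem cells are derived, or primitive endoderm. *Nanog* marks the epiblast side and *Gata6* the primitive endoderm side, and FGF4 made by epiblast cells favours primitive endoderm through the ERK pathway. *Gata6* is followed by the transcription factor genes *Gata4*, *Sox17* and *Sox7*, and the later endoderm takes up proteins through cubilin and megalin, with *Dab2* and *Amn* as parts of that machinery. The tissue secretes a basement membrane of laminin, a trimer of an alpha, a beta and a gamma chain (*Lama1*, *Lamb1* and *Lamc1*), and of type IV collagen, built from *Col4a1* and *Col4a2* chains. Fibroblasts make *Lamb1*, *Col4a1* and *Col4a2* as well.

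RefSeq start-site windows (GRCm38.p6, 250 bases before to 50 after the start) were matched for 5 of the 10 genes, *Col4a1*, *Col4a2*, *Lamb1*, *Amn* and *Dab2*, and not for *Gata4*, *Gata6*, *Sox17*, *Sox7* and *Lama1*. They were searched on both strands for AGATAA and TGATAA, forms of the GATA site, for CCAAT and for the GC box GGGCGG; no matches overlapped. *Dab2* is shown because it held both GATA forms, *Amn* and *Lamb1* because they fell together with *Gata4* in the knockdown, and *Col4a1* and *Col4a2* because the 2 genes start head to head and their RefSeq starts overlap by 22 bases. Each sequence runs 5′ to 3′ on the plus strand, with any of the 4 motifs in capitals, on either strand.
Dab2, chr15:6299539-6299788, the 250 bases before the start: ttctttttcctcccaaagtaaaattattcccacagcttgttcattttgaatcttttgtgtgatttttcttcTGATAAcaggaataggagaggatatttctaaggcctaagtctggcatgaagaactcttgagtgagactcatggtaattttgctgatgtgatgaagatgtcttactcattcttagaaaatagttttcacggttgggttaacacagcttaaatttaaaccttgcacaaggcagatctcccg
Amn, chr12:111270846-111271095, the 250 bases before the start: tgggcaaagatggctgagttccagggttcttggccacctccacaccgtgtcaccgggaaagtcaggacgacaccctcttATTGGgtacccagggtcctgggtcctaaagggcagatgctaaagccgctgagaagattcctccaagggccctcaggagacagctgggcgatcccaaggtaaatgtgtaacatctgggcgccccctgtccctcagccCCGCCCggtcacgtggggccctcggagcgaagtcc
Lamb1, chr12:31265043-31265292, the 250 bases before the start: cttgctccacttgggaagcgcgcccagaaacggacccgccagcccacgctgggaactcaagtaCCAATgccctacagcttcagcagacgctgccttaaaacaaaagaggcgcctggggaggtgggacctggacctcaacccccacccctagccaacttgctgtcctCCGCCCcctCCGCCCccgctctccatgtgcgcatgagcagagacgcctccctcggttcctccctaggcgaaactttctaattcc
Col4a1 and Col4a2, chr8:11312805-11312826, the stretch both starts share: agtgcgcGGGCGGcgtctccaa
The *Dab2* window held TGATAA 179 bases before the start and AGATAA on the opposite strand at base 15 after it, while a further *Dab2* start at base 6386748 of chromosome 15 held none of the 4 motifs. Over all 32851 windows, 9.05% held TGATAA and 11.2% AGATAA. *Amn* and *Lamb1* held no GATA form and had CCAAT, present in 37.4% of windows, and GGGCGG, present in 35.7%. The stretch shared by *Col4a1* and *Col4a2* holds a GC box that lies 8 bases into *Col4a2*. A match is only a match of letters.

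The 2 mESC libraries stood apart from each other in these genes, which touches every comparison with mESC. In FPKM, a read count scaled by transcript length and library size, 9 of the 10 genes were higher in mESC library 2. The ratio of library 2 to library 1 was 5.16 for *Amn*, 3.72 for *Col4a2*, 2.84 for *Col4a1*, 2.59 for *Sox17*, 2.16 for *Dab2*, 1.95 for *Gata4* and 1.93 for *Lamb1*. It was 1.48 for *Sox7* and 1.38 for *Lama1*, and *Gata6* alone was lower, at 0.802. Thus 7 of the 10 were at least 1.5-fold higher in library 2, against 24.9% of the 11390 genes at a mean of 1 FPKM or more, whose median ratio was 1.09. The confidence bounds deposited with the 2 values did not overlap for any of the 10 genes. The same held for 4 members in MEF, 1 in KD_control and 5 in Dppa5a_KD. These bounds belong to the estimate of each single library, and the share of all genes with bounds apart was not counted. Other endoderm genes differed likewise, with 10 of 17 at least 1.5-fold higher in library 2 (median ratio 2.13). So did 4 of 5 trophectoderm genes (median 4.94), 3 of 5 fibroblast markers (2.05) and 10 of 16 enzymes and receptors of collagen and laminin assembly (1.59). The counts were 4 of 12 for other basement membrane genes (median 1.33), 3 of 11 for genes of the FGF branch (1.03) and 2 of 9 for pluripotency genes (1.34). The 12 fibroblast markers summed to 8.67 FPKM in library 1 and 14.9 FPKM in library 2, against 6413 to 7489 FPKM in MEF, and *Col3a1* was listed at 0 in both mESC libraries. The part of any of these cell types in the gap was not tested. None of the 8 members at 1 FPKM or more in KD_control differed by 1.5-fold between its libraries, nor did any of the 5 in MEF. In Dppa5a_KD 1 of 7 did, *Lama1*, lower in library 2. Of all genes at that level, 0.643% were at least 1.5-fold higher and 0.667% lower in library 2 of KD_control. The shares were 2.198% and 6.096% in MEF and 11.994% and 4.528% in Dppa5a_KD. With so few members, these counts do not set them apart from other genes in the 3 groups.

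**Figure D1:**
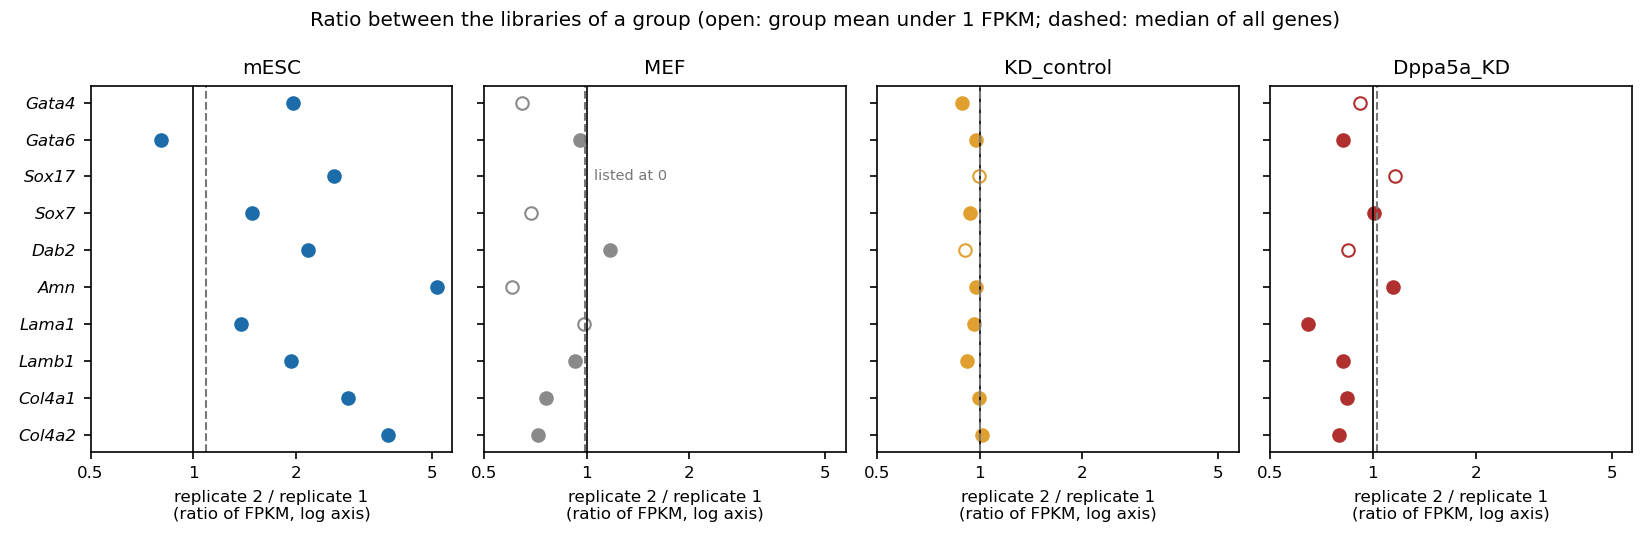
Ratio of the FPKM of library 2 to that of library 1 (x axis, log scale) for each gene (y axis) in the 4 RNA-seq groups; open points have a group mean under 1 FPKM and the dashed line is the median of all genes. In mESC 9 of the 10 points lie to the right of 1, from 1.38 to 5.16, while all 10 KD_control points lie close to 1.

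The labels were checked on marker genes. The 9 pluripotency markers summed to between 1915 and 3563 FPKM in the 6 stem cell RNA-seq libraries and to 17.7 and 23.4 FPKM in MEF, where *Pou5f1* was listed at 0. *Zfp42* (also Rex1), a marker of naive stem cells, stood at 406 and 502 FPKM in mESC but at 34.3 and 36.6 FPKM in KD_control. *Dppa5a* fell from 5126 and 5417 FPKM in KD_control to 101 and 358 FPKM in Dppa5a_KD. The RIP libraries held 3472020 to 13033886 counts, of which 77.3% to 89.2% lay in 4 abundant RNAs (*Rn45s*, *Rmrp*, *Rpph1* and *Lars2*), so that 702016 to 1492111 counts were left for all other genes. The FPKM tables carry no counts and their depth is unknown. The labels do not say whether a group's 2 libraries are separate cultures. The spread behind each p-value is therefore that between 2 libraries and may be technical. In such bulk samples fewer cells of a type and less RNA per cell cannot be told apart.

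The 4 transcription factor genes had their highest means in mESC. *Gata4* (chr14:63198915-63245260), a zinc-finger factor of endoderm and heart, stood at 7.46 and 14.6 FPKM in mESC, 3.03 and 2.69 in KD_control, 0.884 and 0.811 in Dppa5a_KD and 0.908 and 0.590 in MEF. Its levels thus fell in 3 steps, with Dppa5a_KD inside the range of MEF. *Gata6* (chr18:11052510-11085635), the earliest of the set in the embryo, stood at 15.7 and 12.6 FPKM in mESC, 12.9 and 12.6 in KD_control, 8.59 and 7.02 in Dppa5a_KD and 4.27 and 4.08 in MEF. Here mESC and KD_control overlapped, and the gene kept a level of several FPKM even in fibroblasts. *Sox17* (chr1:4490928-4497354), an HMG-box factor of endoderm, was at 2.51 and 6.48 FPKM in mESC, at 0.562 and 0.560 in KD_control, at 0.273 and 0.317 in Dppa5a_KD, and was listed at 0 in both MEF libraries. Its groups did not overlap, but every group other than mESC was under 1 FPKM. *Sox7* (chr14:63943706-63950732), of the same Sox subfamily, had another order: 4.60 and 6.81 FPKM in mESC, 2.97 and 2.98 in Dppa5a_KD, 1.42 and 1.34 in KD_control and 0.622 and 0.426 in MEF. It was the only one of the 4 that was higher in Dppa5a_KD than in KD_control, in both libraries. As a result the ratio of *Sox7* to *Sox17* FPKM was 10.8 and 9.39 in Dppa5a_KD against 2.53 and 2.39 in KD_control, and 1.83 and 1.05 in mESC. The ratio of *Gata6* to *Gata4* was 9.71 and 8.65 in Dppa5a_KD, 4.25 and 4.68 in KD_control, 4.70 and 6.91 in MEF and 2.11 and 0.866 in mESC.

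The 2 endocytic genes differed in whether fibroblasts expressed them. *Dab2* (chr15:6299789-6440709), a clathrin adaptor of the primitive endoderm and of other cells that take up protein, stood at 21.4 and 25.0 FPKM in MEF and at 11.1 and 24.1 in mESC, groups that overlapped. It was at 1.01 and 0.910 FPKM in KD_control and at 0.403 and 0.341 in Dppa5a_KD, far below both. *Amn* (chr12:111271111-111276426), amnionless, which carries cubilin to the cell surface, stood at 3.79 and 19.5 FPKM in mESC, 4.97 and 4.84 in KD_control, 1.37 and 1.57 in Dppa5a_KD and 0.246 and 0.149 in MEF. KD_control lay inside the wide range of mESC, and Dppa5a_KD lay below both.

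In mESC all 4 basement membrane genes had higher mean FPKM than the other 6 members, whereas in MEF *Lama1* lay below *Dab2* and *Gata6*, in KD_control the libraries of *Lama1* and *Gata6* overlapped, and in Dppa5a_KD *Lamb1* had a lower mean than *Gata6*. *Lama1* (chr17:67697265-67822645), the alpha chain of the embryonic laminin, was at 41.2 and 56.8 FPKM in mESC, 17.99 and 11.6 in Dppa5a_KD, 13.2 and 12.7 in KD_control and 0.692 and 0.679 in MEF. Dppa5a_KD and KD_control overlapped, and fibroblasts had hardly any. *Lamb1* (chr12:31265294-31329639), the beta chain, was highest in MEF, at 73.9 and 68.3 FPKM, then in mESC at 27.9 and 53.9, in KD_control at 15.0 and 13.8 and in Dppa5a_KD at 7.32 and 5.99, with no overlap between groups. *Col4a1* (chr8:11198423-11312826) was at 123 and 93.7 FPKM in MEF, 46.8 and 133 in mESC, 44.1 and 43.8 in KD_control and 36.9 and 31.1 in Dppa5a_KD. Its partner *Col4a2* (chr8:11312829-11449287) was at 90.3 and 65.1 FPKM in MEF, 16.7 and 62.0 in mESC, 22.4 and 22.7 in KD_control and 17.4 and 13.8 in Dppa5a_KD. For *Col4a1* the mESC libraries lay on either side of MEF, and for *Col4a2* mESC library 1 lay within the range of Dppa5a_KD.

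**Figure D2:**
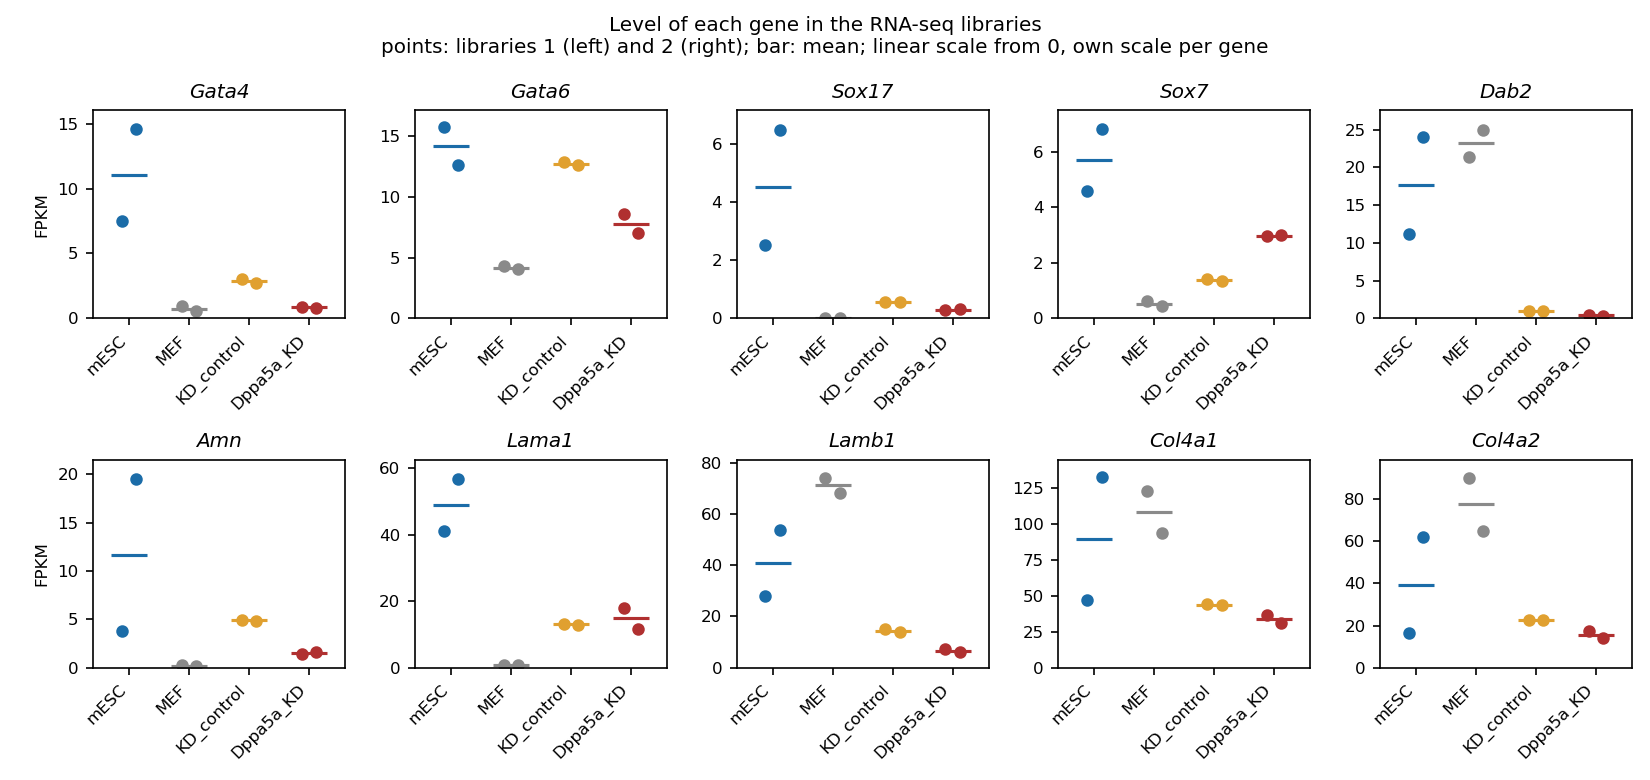
FPKM (y axis, linear from 0 with an own scale per gene) of each gene in the 4 RNA-seq groups (x axis); points are libraries and bars the mean of 2. *Gata4*, *Sox17* and *Lama1* are highest in both mESC libraries and *Lamb1* and *Col4a2* in both MEF libraries, and *Sox7* is the gene whose Dppa5a_KD points lie clearly above KD_control.

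The chains of the laminin and collagen trimers were made in different proportions. *Lama1* was 71.2% and 74.6% of the summed FPKM of *Lama1* to *Lama5* in mESC, 34.9% and 35.1% in KD_control, 43.2% and 41.2% in Dppa5a_KD and 1.18% and 1.16% in MEF. In MEF *Lama4* made up 83.4% and 87.0% instead, and in KD_control *Lama5* made up 55.9% and 55.5%. *Lamb1* made up 85.2% and 88.4% of the summed beta chains in mESC, 51.1% and 47.8% in KD_control, 61.5% and 66.4% in MEF and 45.1% in both Dppa5a_KD libraries. *Lamc1*, the gamma chain, varied little by comparison, between 55.1 and 102 FPKM in all 8 libraries. The ratio of *Col4a1* to *Col4a2* FPKM was 2.81 and 2.15 in mESC, 1.97 and 1.93 in KD_control, 2.13 and 2.24 in Dppa5a_KD and 1.36 and 1.44 in MEF. It was above 1 in all 8 libraries and lower in both MEF libraries than in any of the 6 stem cell libraries. These shares and ratios are descriptions of levels per transcript length, without a test.

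**Figure D3:**
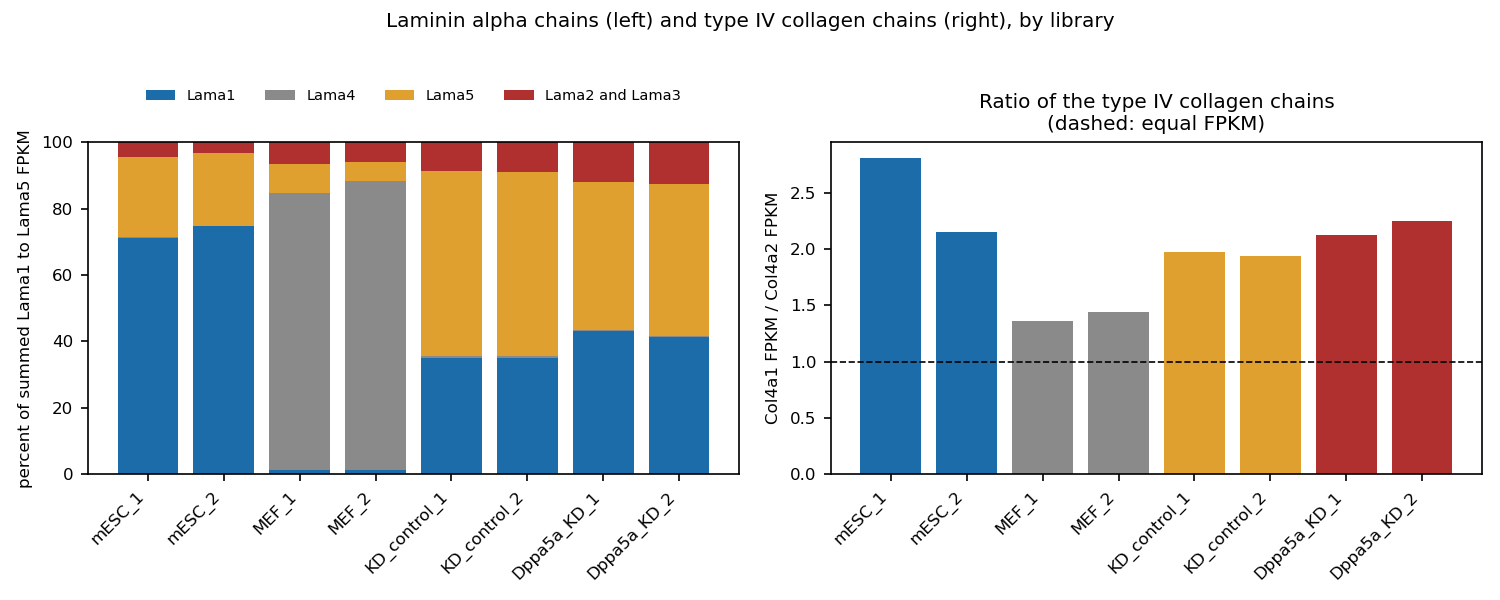
Left, share of *Lama1*, *Lama4*, *Lama5* and the remaining *Lama2* and *Lama3* in the summed laminin alpha chain FPKM (y axis, percent) of each RNA-seq library; right, FPKM of *Col4a1* divided by that of *Col4a2* (y axis, from 0), by library. *Lama1* fills 71.2% and 74.6% of the mESC bars and *Lama4* most of the MEF bars, and the collagen ratio is lowest in MEF, at 1.36 and 1.44.

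Stem cells were compared with fibroblasts as the cell types the series set side by side. Of the 10 genes, 6 were higher in mESC and none was called lower, by limma on log2(FPKM + 1) with Benjamini-Hochberg adjustment and a threshold of 0.05. Over all 12875 genes tested, 30.6% were called higher and 26.1% lower, and the median log2 fold change was 0.15. Of the members, *Gata4*, *Sox17*, *Sox7*, *Amn* and *Lama1* passed the filter of 1 FPKM only through mESC, and the 5 at 1 FPKM or more in both groups had a median of -0.47. *Lama1* had the greatest difference, a log2 fold change of 4.87 (SE 0.23, adjusted p = 0.00011). *Amn* was higher by 3.05 (SE 0.66, adjusted p = 0.012) and *Gata4* by 2.72 (SE 0.33, adjusted p = 0.0017). *Sox7* was higher by 2.12 (SE 0.23, adjusted p = 0.0011) and *Gata6* by 1.55 (SE 0.21, adjusted p = 0.0023), and *Sox17* passed at an adjusted p of 0.0039 with MEF listed at 0. The other 4 members did not pass. *Dab2* gave -0.47 (SE 0.38, adjusted p = 0.33) and *Lamb1* -0.86 (SE 0.35, adjusted p = 0.085). *Col4a1* gave -0.44 (SE 0.51, adjusted p = 0.50) and *Col4a2* -1.22 (SE 0.61, adjusted p = 0.14). Without mESC library 2 all 10 were called, those 4 as lower in mESC, whereas without mESC library 1 the same number of 6 higher and 0 lower was called as with both. With a single MEF library 3 (without MEF library 1) or 2 (without MEF library 2) were called. With either other scaling of the libraries *Lamb1* was called lower as well.

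Among genes with related roles, 10 of 19 tested endoderm genes outside the set were higher in mESC and 5 lower. Their median log2 fold change was 0.78. It was 1.38 over the 20 tested without mESC library 1 and 0.79 over the 17 tested without library 2. *Srgn*, a proteoglycan gene, stood at 30.1 and 43.8 FPKM in mESC and at 0.0907 FPKM on average in MEF (log2 fold change 5.10, SE 0.24), and *Lrp2*, megalin, was higher by 2.96 (SE 0.19). *Fst* and *Thbd*, also expressed outside endoderm, were lower by log2 fold changes of -5.30 and -4.67. Of 18 tested other basement membrane genes 5 were higher and 10 lower, led by *Lama4* at -5.46 (SE 0.19), *Smoc2* at -5.20 and *Col4a5*, a collagen chain outside the *Col4a1* and *Col4a2* trimer, at -3.42. Of 17 assembly enzymes and receptors 3 were higher and 11 lower, with *Bcam*, a laminin receptor, at 3.92 (SE 0.34) and *Pxdn*, which crosslinks type IV collagen, at -3.24 (SE 0.24). Of 11 genes of the FGF branch 7 were higher, *Nanog*, *Fgf4* and *Etv5* among them, and 2 lower, among them *Fgfr2* at -2.08 (SE 0.20). With only MEF library 2 kept, the 4 lists had 4, 2, 1 and 3 higher and 5, 8, 4 and 1 lower, and with only MEF library 1 kept 5, 1, 1 and 3 higher and 5, 8, 5 and 1 lower. All 12 fibroblast markers were lower in mESC and all 9 pluripotency markers higher, of which 8 were called without mESC library 2 and 7 without either MEF library.

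The knockdown was compared with its control. Of the 8 members at a mean of 1 FPKM or more in either group, 5 were lower in Dppa5a_KD and 1 higher, and 2 did not pass. Over the 12345 genes tested, 23.8% were called lower and 13.6% higher, and the median log2 fold change was -0.11. With a common sum the shares were 13.5% and 10.2%, and with median-ratio scaling 17.2% and 20.7%, where the balance over all genes turned. The median of the 8 members was -0.58, and -0.51 over the 7 at 1 FPKM or more in both groups, which leaves out *Gata4*. *Amn* fell by 1.26 on the log2 scale (SE 0.11, adjusted p = 0.0060), *Gata4* fell by 1.06 (SE 0.11, adjusted p = 0.0063) and *Lamb1* fell by 1.01 (SE 0.13, adjusted p = 0.0086). *Sox7* rose by 0.74 (SE 0.10, adjusted p = 0.0095). These 4 calls were also made with both other scalings of the libraries, where the median of all genes moved to 0.02 and 0.05. With all 8 RNA-seq libraries in the fit *Amn* did not pass (adjusted p = 0.14), while *Gata4*, *Lamb1* and *Sox7* did. *Gata6* fell by 0.65 (SE 0.13, adjusted p = 0.020) and *Col4a2* fell by 0.51 (SE 0.14, adjusted p = 0.042) in the deposited scale and in neither other scaling. With the libraries scaled to a median ratio, *Gata6* gave -0.49 (adjusted p = 0.052) and *Col4a2* -0.34 (adjusted p = 0.13), and without either KD_control library neither passed. *Lama1*, at 0.15 (SE 0.21, adjusted p = 0.61), and *Col4a1*, at -0.37 (SE 0.12, adjusted p = 0.074), did not pass. *Lama1* gave -0.15 without Dppa5a_KD library 1 and 0.44 without library 2 (adjusted p = 0.00053), so 1 library sets its direction. *Sox17* and *Dab2* lay under the filter. The median of the members tested was -0.58 or -0.55 without KD_control library 1 or 2, and -0.72 or -0.44 without Dppa5a_KD library 1 or 2. Calls over all genes rose without either Dppa5a_KD library and fell without either KD_control library, and the number of members called moved with them.

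Endoderm genes outside the set moved mostly down with them: of 13 tested, 9 fell and 1 rose, with 8 and 1 under median-ratio scaling and 7 and 0 with a common sum. Their median log2 fold change was -0.63, and it lay between -0.69 and -0.61 with each library left out in turn. *Srgn* fell by 1.53 on the log2 scale (SE 0.25), *Cited1*, a transcriptional cofactor, fell by 0.89 (SE 0.16) and *Cubn*, the cubilin that *Amn* carries, fell by 0.73 (SE 0.12). The gene that rose was *Lrp2*, by 0.79 (SE 0.22, adjusted p = 0.0495), named after its value was seen, and it was not called with a common sum. Of 15 other basement membrane genes 4 fell and 1 rose, with *Lamb3* at -1.06 (SE 0.12) and *Col18a1*, the collagen that holds endostatin, at 0.83 (SE 0.12). Among 17 assembly enzymes and receptors 5 fell and 3 rose. The collagen prolyl hydroxylase subunit genes *P4ha1* (-1.22, SE 0.10) and *P4ha2* (-1.01, SE 0.13) and the lysyl hydroxylase gene *Plod2* (-0.89, SE 0.10) fell, and *Bcam* rose by 1.01 (SE 0.11). Under median-ratio scaling these lists had 3 falling and 2 rising and 3 falling and 4 rising, and with a common sum 2 and 1 and 3 and 3. In the FGF branch 4 of 10 rose and 2 fell, and under the other scalings 3 or 5 rose and none was called lower. These 3 lists also move with the library left out. So do the calls over all genes, which rise without either Dppa5a_KD library and fall without either KD_control library. Without Dppa5a_KD library 1 they had 7, 8 and 2 lower and 2, 5 and 5 higher, and without library 2 they had 7, 9 and 4 lower and 5, 5 and 6 higher. Without KD_control library 1 they had 3, 3 and 0 lower and 0, 1 and 2 higher, and without library 2 they had 2, 3 and 0 lower and 0, 1 and 3 higher. In the deposited scale, those that rose were ERK feedback and target genes: *Spry4* by 2.41 (SE 0.10, from 19.7 and 20.0 to 111 and 109 FPKM), *Dusp6* by 2.27 (SE 0.10), *Spry2* by 0.84 (SE 0.20) and *Etv4* by 0.78 (SE 0.13).

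Markers of other cells moved in the knockdown too. Of 5 fibroblast markers tested 4 fell, and the list's summed level went from 36.2 and 34.9 FPKM to 14.7 and 15.1 FPKM. *Col1a1*, at 2894 and 2226 FPKM in MEF, was under 1 FPKM in all 6 stem cell libraries, and *Col3a1* was at or near 0. Trophectoderm genes summed to 61.8 and 64.0 FPKM in KD_control and 37.0 and 39.5 FPKM in Dppa5a_KD. Their part in the changes of the members was not tested. Of the 9 pluripotency markers 1 was called in the deposited scale, *Dppa3*, as lower. With a common sum or median-ratio scaling 1 or 2 were called higher and 1 lower. Their median log2 fold change was 0.042, and it was 0.11 or -0.026 without Dppa5a_KD library 1 or 2.

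The control of the knockdown was also set beside mESC, since the labels give both as untreated wild-type stem cells of the home-made line. Their libraries differ in set and in group at once, which cannot be told apart, and the comparison shares libraries with the other 2 RNA-seq comparisons. Of the 10 genes 6 were lower in KD_control and the other 4 did not pass, where 15.0% of 12595 genes were called lower and 26.5% higher and the median log2 fold change of all genes was 0.19. *Dab2* and *Sox17*, which are among the 6, passed the filter of 1 FPKM only through mESC. The median of the 10 genes was -1.42, and -1.10 over the 8 at 1 FPKM or more in both groups. *Dab2* was lower by a log2 fold change of -3.16 (SE 0.38, adjusted p = 0.0098), *Lama1* by -1.82 (SE 0.20, adjusted p = 0.0090) and *Sox17* by -1.71 (SE 0.39, adjusted p = 0.032). *Gata4* gave -1.57 (SE 0.33, adjusted p = 0.027), *Sox7* -1.47 (SE 0.21, adjusted p = 0.012) and *Lamb1* -1.38 (SE 0.34, adjusted p = 0.039). *Gata6*, at -0.14 (SE 0.17), *Amn*, at -0.75 (SE 0.73), *Col4a1*, at -0.83 (SE 0.53), and *Col4a2*, at -0.50 (SE 0.64), did not pass. Without KD_control library 1, 5 members were called lower, with *Lamb1* lost (adjusted p = 0.059), and without library 2, 4, with *Lamb1* (0.094) and *Gata4* (0.066) lost. The choice of mESC library moves more. Without library 1 the median log2 fold change of the 10 genes was -1.82. Without library 2 it was -1.02, with *Amn* (0.30) and *Col4a2* (0.41) above 0. Calls over all genes rise as well without either mESC library, which bears on the counts of list genes given below. Of 17 other endoderm genes tested 8 were lower and 9 did not pass, with the same counts under both other scalings. Of these genes, *Foxa2*, *Hnf4a*, *Dkk1* and *Fst* passed the filter only through mESC. *Srgn* gave -2.93 (SE 0.23), *Cubn* -2.41 (SE 0.26) and *Lrp2* -1.66 (SE 0.15). The median log2 fold change of that list was -0.95, and it was -1.04 without mESC library 1 and -0.48 without library 2. Of 15 other basement membrane genes 4 were higher and 2 lower, with *Lamb3* at 2.68 (SE 0.15), and of 17 assembly genes 6 were higher and 1 lower, with *P4ha1* at 2.76 (SE 0.55) and *Serpinh1*, a collagen chaperone gene, at 2.24 (SE 0.48). These 2 lists had 10 and 11 higher and 4 and 3 lower without mESC library 1, and 11 and 15 higher and 3 and 2 lower without library 2. The FGF branch had 2 higher and 2 lower of 11, with *Dusp6* at -1.17 (SE 0.13) and *Etv4* at 1.20 (SE 0.29); 4 were higher and 6 lower without mESC library 1, and 5 and 5 without library 2. Without either KD_control library none of the FGF branch was called and no other basement membrane or assembly gene was called lower. Fibroblast markers summed to 36.2 and 34.9 FPKM in KD_control and 8.67 and 14.9 FPKM in mESC, and their part was not tested.

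**Figure D4:**
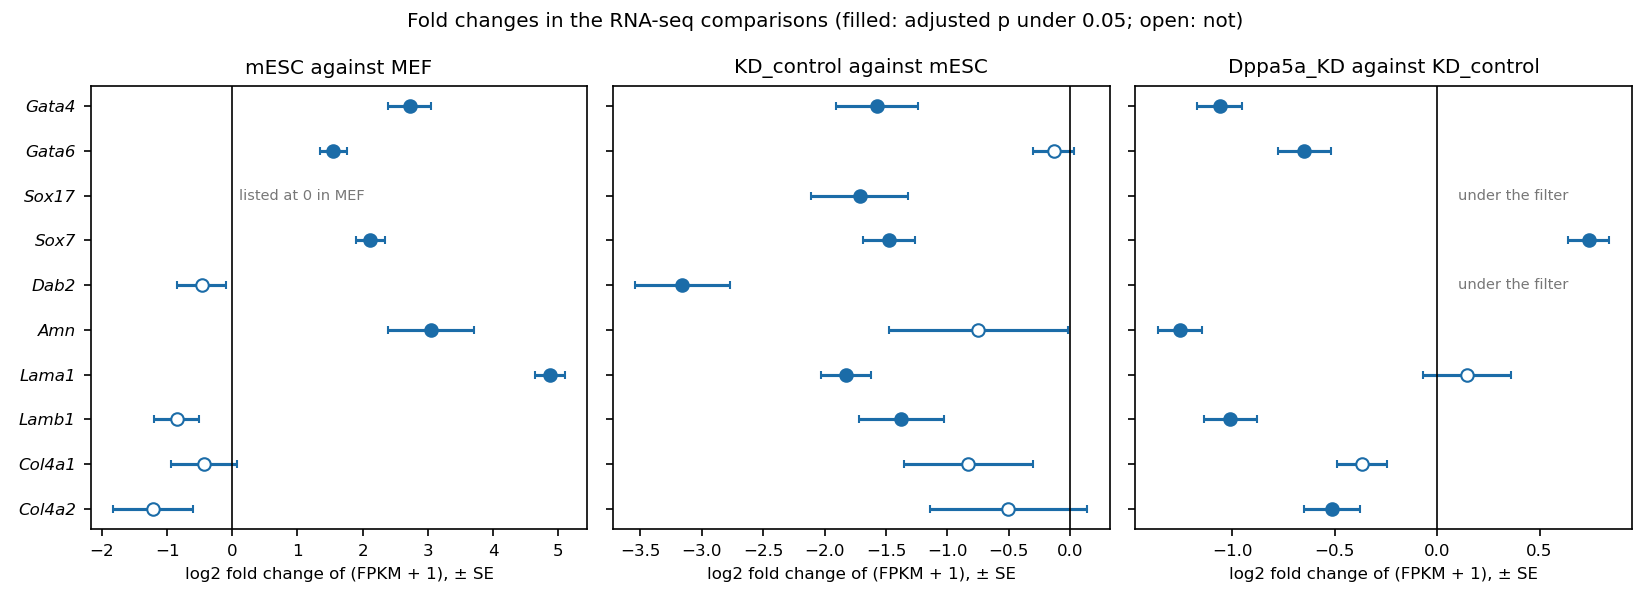
Log2 fold change of FPKM + 1 (x axis, own scale per panel, with SE as bars) of each gene (y axis) in the 3 RNA-seq comparisons; filled points passed an adjusted p of 0.05. The 5 drawn genes that passed in mESC against MEF lie to the right of 0, the 6 that passed in KD_control against mESC lie to the left, and in Dppa5a_KD against KD_control *Sox7* alone of the 6 that passed lies to the right.

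The nearest genes in pattern over the 8 RNA-seq libraries were sought for 1 transcription factor and 1 matrix gene, by the root mean square difference of centred log2(FPKM + 1), among 8596 genes at a mean of 5 FPKM or more. The nearest to *Gata4* were *Gstp2* (0.31), *Ldhb* (0.46), *Ckb* (0.50), *Klf15* (0.53) and *Zic2* (0.55). *Gstp2*, for example, stood at 90.7 and 128 FPKM in mESC, 40.6 and 41.3 in KD_control, 14.8 and 28.0 in Dppa5a_KD and 26.1 and 19.2 in MEF. The member nearest to *Gata4* was *Sox17* (0.32). *Sox17* lay under that mean of 5 FPKM and was not ranked with the 8596 genes. Genes under it, apart from the members, were not compared. The nearest to *Lama1* were *Zfp534* (0.22), *Triml1* (0.29), *Gab1* (0.36), *Tuba3b* (0.38) and *Ccnb1ip1* (0.41), and its nearest member was *Amn* at 0.97. *Col4a1* and *Col4a2* were nearest to each other, at 0.30.

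Immunoprecipitated RNA was compared with IgG to ask which RNAs came down with tagged Dppa5a. *Col4a1* RNA was higher with Flag antibody in untreated and HU-treated cells, and *Lamb1* RNA in HU-treated cells. *Col4a1* had 10 and 7 counts with IgG, 128 and 72 in Flag_RIP and 77 and 63 after HU, or 1.99 and 1.18, 12.4 and 9.00, and 10.2 and 10.3 CPM, counts scaled to a common library size by TMM. Both antibody groups lay above IgG without overlap. Its log2 fold change over IgG was 2.76 in untreated cells (SE 0.54, adjusted p = 0.0057) and 2.70 after HU (SE 0.55, adjusted p = 0.0064), by edgeR's quasi-likelihood test. *Lamb1* had 7 and 4 counts with IgG, 47 and 36 in Flag_RIP and 35 and 57 after HU. It was called after HU, at 2.75 (SE 0.70, adjusted p = 0.031), and not in untreated cells, at 2.13 (SE 0.70, adjusted p = 0.11). *Col4a2* had 2 and 5, 48 and 20, and 22 and 14 counts, and did not pass at 2.48 (SE 0.90, adjusted p = 0.15) or 2.02 (SE 0.91, adjusted p = 0.25). *Lama1* had 35 and 22, 98 and 55, and 39 and 41 counts, and its CPM of 6.97 and 3.72 in IgG_RIP overlapped both other groups. *Dab2* had 9 and 9, 15 and 2, and 5 and 23 counts. Its CPM of 1.46 and 0.250 in Flag_RIP lay just below the 1.79 and 1.52 of IgG_RIP, and HU_Flag_RIP spanned both; neither difference passed (adjusted p = 0.79 and 0.90).

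So 1 of 5 members tested was called higher in Flag_RIP and 2 of 5 in HU_Flag_RIP, where 1.23% and 1.53% of 10473 genes were called higher and 1.27% and 1.59% lower. These 2 comparisons share the IgG libraries, and the latter differs in antibody and treatment at once. The *Col4a1* calls rest on both IgG libraries: the adjusted p was 0.053 or 0.12 in untreated cells and 0.051 or 0.13 after HU without IgG library 1 or 2. The *Lamb1* call after HU rests on 3 libraries, with an adjusted p of 0.12 or 0.23 without IgG library 1 or 2 and 0.19 without HU_Flag_RIP library 2. With library sizes alone as scaling, which moved the median of all genes to -0.87 and -0.88, *Col4a1* gave 1.87 and 1.79 and was called in both, and *Lamb1* was called in neither (adjusted p = 0.061 after HU). Between HU_Flag_RIP and Flag_RIP no member was called by edgeR or DESeq2 and 0 had an unadjusted p under 0.05, where 0.143% of genes were called higher and 0.458% lower. The HU difference of *Col4a1* was -0.06 (SE 0.46) and that of *Lamb1* 0.62 (SE 0.59).

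The transcription factor genes and *Amn* had too few counts to be tested. *Gata4* had 1 and 0 counts with IgG, 13 and 3 in Flag_RIP and 7 and 11 after HU. *Gata6* had 0 and 0, 6 and 1, and 4 and 7 counts, and *Sox17* had 0 and 0, 12 and 11, and 0 and 6. With 3 counts taken as the floor of each IgG library, the mean of *Sox17* in Flag_RIP was 2.30-fold the mean floor. Its 2 libraries alone gave 2.11 and 2.49. For *Gata6* in HU_Flag_RIP no mean fold is given, since library 1 lay below the floor, at 0.962 of it, and library 2 at 2.08. The means of *Gata6* in Flag_RIP, 0.354 CPM, and of *Sox17* in HU_Flag_RIP, 0.493 CPM, were under the floor of 0.553 CPM. *Gata4* had a count with IgG, so no fold over the floor is given for it. Its means of 0.820 CPM in Flag_RIP and 1.37 CPM in HU_Flag_RIP lay above that floor. *Sox7* had 0 and 8, 5 and 0, and 2 and 0 counts, and *Amn* 0 and 4, 10 and 1, and 0 and 0. Floors cover the counting error of the IgG libraries only, and that of the few Flag counts was not included.

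Of the 4 lists of related genes, calls were made in the FGF branch. By edgeR, none of 7 endoderm genes, 13 other basement membrane genes and 17 assembly genes tested was called in either Flag group against IgG; 2, 3 and 6 had an unadjusted p under 0.05 in untreated cells and 1, 2 and 6 after HU, and DESeq2 called 0 in untreated cells and 0, 1 and 1 after HU. In the FGF branch 2 of 11 were called lower than IgG in both, by edgeR's and by DESeq2's count. *Spry4*, an inhibitor of FGF signalling, stood at 170 and 190 CPM with IgG, 76.5 and 62.9 in Flag_RIP and 66.3 and 34.0 after HU (log2 fold change -1.37, SE 0.29, adjusted p = 0.0094 and -1.84, SE 0.29, adjusted p = 0.00070). *Etv4*, an ETS factor gene downstream of FGF signalling, stood at 59.3 and 41.8, 9.24 and 17.0, and 10.1 and 11.5 CPM (-1.95, SE 0.36, adjusted p = 0.0035 and -2.23, SE 0.37, adjusted p = 0.0012). Both lay below IgG in all 4 Flag libraries. These calls rest on the IgG libraries too: without IgG library 1 the list had 0 lower in Flag_RIP and 1 after HU, and without IgG library 2 it had 1 and 2. With library sizes alone 7 and 9 of the 11 were called lower, and the other 3 lists had 1, 2 and 3 lower in Flag_RIP and 1, 5 and 4 after HU, with 1 other basement membrane gene higher after HU. Leaving out a Flag_RIP or HU_Flag_RIP library gave 0 or 1 calls per direction in those 3 lists and 2 or 3 lower in the FGF branch. *Lamc1*, the partner of *Lamb1*, stood at 31.9 and 31.8 CPM with IgG, 44.1 and 40.1 in Flag_RIP and 25.1 and 40.7 after HU and was not called. The fibroblast markers summed to 10 and 14 counts with IgG, 140 and 19 in Flag_RIP and 60 and 54 after HU. *Tagln* was at 9.72 CPM in Flag_RIP library 1 and 0 in library 2. Of the collagen markers, *Col3a1* was at 0 in all 6 RIP libraries and *Col1a1* at 0 in the 4 untreated ones. *Col1a2* was at 0.996 CPM in IgG library 1, 0.657 CPM in HU_Flag_RIP library 2 and at most 0.0972 CPM elsewhere. *Mmp2* was at 0 and 0.677 CPM with IgG, 0.681 and 0.750 in Flag_RIP and 1.86 and 3.45 after HU. *Mmp2* and *Tagln*, the 2 fibroblast markers tested, had a median log2 fold change over IgG of 2.188 in untreated cells and 2.652 after HU. Neither was called, and the part of fibroblast RNA in the members' values was not tested.

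**Figure D5:**
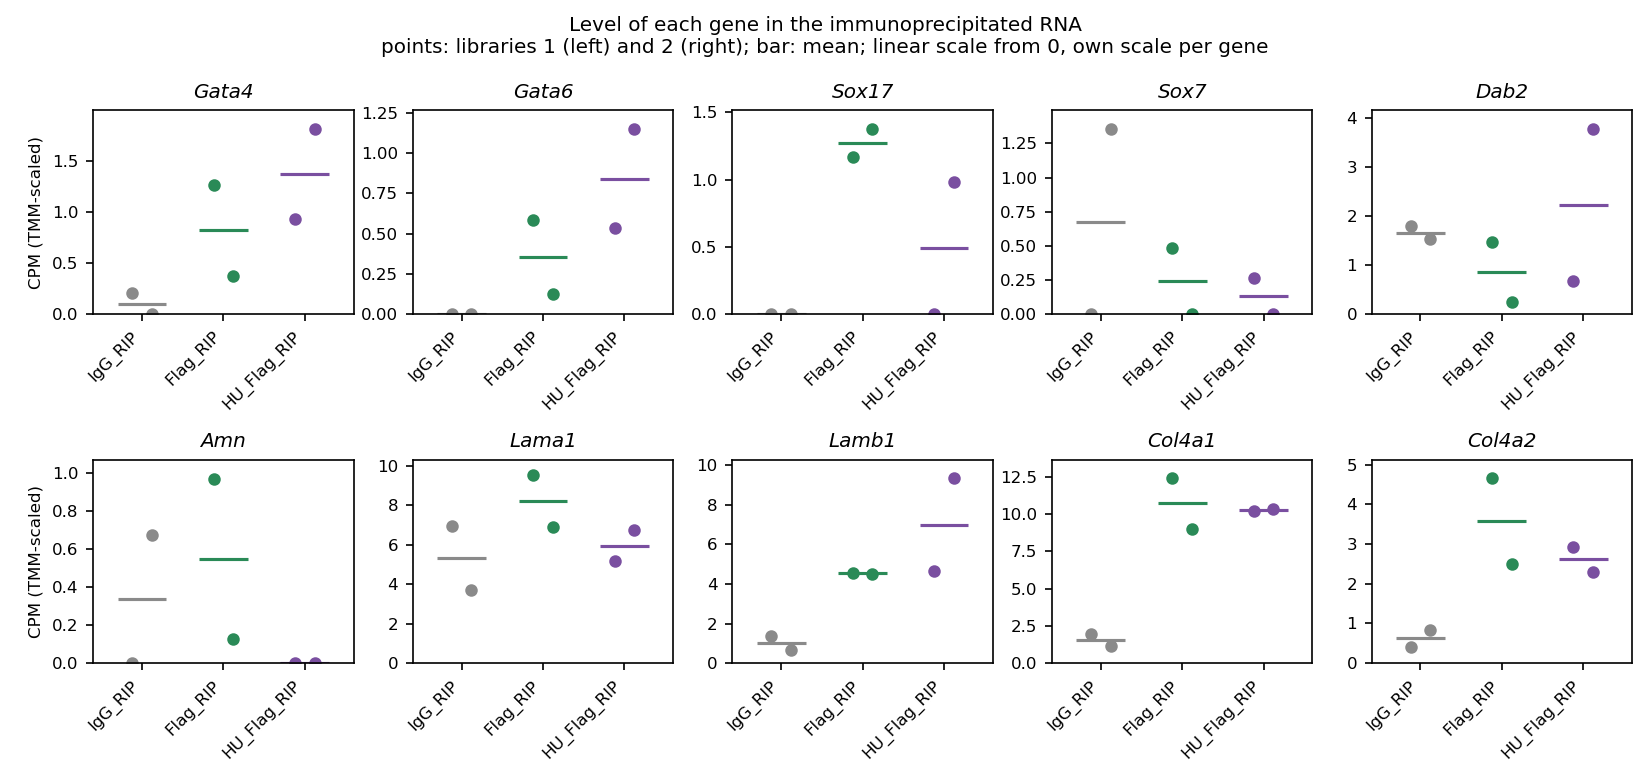
TMM-scaled CPM (y axis, linear from 0 with an own scale per gene) of each gene in the 3 RIP groups (x axis); points are libraries and bars the mean of 2. *Col4a1*, *Col4a2* and *Lamb1* lie above both IgG points in all 4 Flag libraries, and *Gata6*, *Sox17*, *Sox7* and *Amn* stay under 1.5 CPM in all 6.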

How the data were processed

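RNA-seq was measured in 8 libraries and RNA immunoprecipitation in 6. Per the labels' protocols, Trizol was used for the RNA and a NEBNext Ultra kit for the libraries. The sources used here do not state whether the libraries keep strand. The submitters' processing notes name mm10 as build and HTSeq 0.6.1, Cuffdiff 2.1.1, Cufflinks 2.1.1, TopHat2 2.0.8 and CASAVA 2.19, with no role for each. The deposited FPKM values, with lower and upper confidence bounds per the file headers, were used as the authors scaled them. The deposited RIP tables hold raw counts per gene. FPKM was summed over loci of a symbol, 1 gene with a failed estimate and 27 date-like symbols in each count table were left out, and deposited starts, which lay 1 base below RefSeq's for 11021 of the 14019 genes with the same end, were printed counting from 1.

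RNA-seq groups were compared with limma 3.58.1 (trend) on log2(FPKM + 1), where either group's mean reached 1 FPKM, with the 2 groups of the comparison in the fit. A fold change on that scale understates the change of low genes. RIP groups were compared with edgeR 4.0.16 (TMM, filterByExpr, robust quasi-likelihood fit over all 6 libraries); its SE was taken as the fold change divided by the square root of F. P-values were adjusted over all genes tested by Benjamini-Hochberg, with a threshold of 0.05. The fits were tested on simulated data. Alternatives were another pseudocount (0.1), no filter or a mean of 5 FPKM, scaling to a common sum or by median ratio, all groups in the fit, a replicate block, DESeq2 1.42.0, library sizes without TMM, fits without the 4 abundant RNAs, and leaving out each library. All 10 members were named in every comparison, and from each other list up to 4 called genes with the smallest p, apart from a result that is not reported here. The members and the gene lists were chosen with earlier results of these data known. Counts of list genes under the other scalings and without each library, in RNA-seq and RIP, and the medians over members at 1 FPKM or more in both groups were added after seeing the data. The medians of members and lists without a library were added then too. Replicate numbers were not used to pair libraries in the main fits. With 2 per group and only numbers in the labels, whether they pair is not known, and the pairing check is given with the limits.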

Additional observations from a re-analysis of the deposited data

How the results depend on the processing

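The members called were 6, 6, 6, 1, 2 and 0 in mESC against MEF, Dppa5a_KD against KD_control, KD_control against mESC, Flag_RIP against IgG_RIP, HU_Flag_RIP against IgG_RIP and HU_Flag_RIP against Flag_RIP. Leaving out each library in turn gave 2 to 10, 4 to 8, 4 to 9, 0 to 1, 0 to 2 and 0; where this left 1 library in a group, it was assumed to vary like the others. The knockdown count was 3 with a mean of 5 FPKM, where fewer genes were tested, and the HU count was 1 with library sizes alone. Over the members' fold changes, 434 alternatives kept direction and side of the threshold, 31 lost the call, 16 gained it and 15 changed sign, none of these called in the main analysis. The changes of sign, with the range over left-out libraries, were as follows. In mESC against MEF without mESC replicate 1, *Dab2* gave 0.056 (range -0.99 to 0.056) and *Col4a1* 0.31 (-1.18 to 0.31). In the knockdown without Dppa5a_KD replicate 1, *Lama1* gave -0.15 (-0.15 to 0.44). In KD_control against mESC, *Gata6* gave 0.013 without mESC replicate 1 (-0.28 to 0.013), and without replicate 2 *Amn* gave 0.30 (-1.80 to 0.30) and *Col4a2* 0.41 (-1.42 to 0.41). With library sizes alone, *Lama1* gave -0.26 in Flag_RIP against IgG_RIP, and *Dab2* -0.48 and *Lama1* -0.74 in HU_Flag_RIP against IgG_RIP. In the latter, *Dab2* gave -1.30 (-1.30 to 1.18) and *Lama1* -0.036 without HU_Flag_RIP replicate 2, and *Lama1* -0.24 without IgG_RIP replicate 2 (-0.24 to 0.68). In HU_Flag_RIP against Flag_RIP, *Dab2* gave -0.39 without HU_Flag_RIP replicate 2 (-0.39 to 3.04), and without Flag_RIP replicate 1 *Col4a1* gave 0.19 (-0.29 to 0.19) and *Col4a2* 0.065 (-0.84 to 0.065). The cause was not tested.

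The replicate block gave 7, 6, 7, 1, 2 and 0 members called. Same-numbered libraries correlated at -0.55 (mESC and MEF), 0.01 (knockdown and control), 0.06 (KD_control and mESC), -0.01 (Flag and IgG), -0.03 (HU and IgG) and 0.36 (HU and Flag) in their deviations from the group means. The block moved the calls over all genes from 262 to 501 (Flag and IgG), from 326 to 611 (HU and IgG) and from 63 to 82 (HU and Flag). Over all genes, the share of calls that were higher moved from 36.3% to 54.6% in the knockdown and from 63.9% to 51.6% in KD_control against mESC with median-ratio scaling. All-gene calls fell from 4618 to 2916 in the knockdown with a common sum and to 2992 with all 8 libraries in the fit, and to 3023 with a mean of 5 FPKM. With library sizes alone they rose from 262 to 2397 and from 326 to 2822, nearly all lower, and without a filter on counts to 432 and 516. Leaving out each library gave 2835 to 7056 (main 7304), 2415 to 9436 (4618), 1865 to 10895 (5220), 49 to 274 (262), 66 to 382 (326) and 42 to 72 (63) calls. RIP depth limits *Gata4*, *Gata6*, *Sox17*, *Sox7* and *Amn*, which had at most 13 counts in any library.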

Other observations

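Genes of other early lineages gave a mixed picture beside the members. Of 6 trophectoderm genes tested in the knockdown, 4 were lower and 1 higher: the keratin genes *Krt18* (log2 fold change -1.40, SE 0.10) and *Krt7* (-1.28, SE 0.12) and the factor gene *Tfap2c* (-1.14, SE 0.13) fell, and *Eomes* rose by 0.89 (SE 0.11). In mESC against MEF 3 of 7 were higher and 2 lower, and in KD_control against mESC 2 of 6 were higher, with *Krt7* at 1.62 (SE 0.16). In the RIP, *Tfap2c* was at 2.62 CPM on average with IgG, 11.5 and 9.37 in Flag_RIP and 16.9 and 10.2 after HU, called higher in both, and *Eomes* was at 10.6 and 7.79, 0.486 and 0.875, and 1.06 and 0.821 CPM, called lower in both. Of the endothelial genes, *Pecam1*, which stem cells express too, stood at 14.1 and 22.6 FPKM in mESC, 60.2 and 58.6 in KD_control and 27.7 and 29.2 in Dppa5a_KD. The 7 definitive endoderm and mesoderm genes summed to 1.51 to 4.63 FPKM in the 8 RNA-seq libraries and to at most 5 counts in any RIP library.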
